A study of Homo sapiens with 8 samples.

Results

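The peaks described here are all m6A peaks called in METTL3-KD cells whose summit lay in an annotated exon, irrespective of fold enrichment or q-value. Of 1084 peaks in the METTL3-KD list outside the mitochondrial genome, 580 (53.5%, 95% Wilson interval 50.5 to 56.5) had their summit in an exon of at least 1 gene, 448 in an intron and 56 between genes. Both peak lists of the study together held 3382 peaks outside the mitochondrial genome. Each summit was assigned to the 3′UTR, then coding sequence (CDS), then 5′UTR, and otherwise to a noncoding exon, using GENCODE 44 lifted to GRCh37. The 580 peaks fell in 558 host genes, counted by annotated gene entry.

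MeRIP-seq immunoprecipitates fragmented RNA with an anti-m6A antibody and compares the fragments recovered with the input RNA. It was performed in MIAPaCa-2, an established human epithelial cell line from the pancreas, carrying either a control shRNA (shRNA-Control) or an shRNA against METTL3 (shRNA-METTL3). From L001 and L002 in the sample titles, each condition was read as 1 m6A library and 1 input library, each sequenced in 2 lanes. Whether these were separate libraries could not be checked. Between lanes, the chi-square of gene counts per degree of freedom was 2.07 in the control input and 1.06 in the METTL3-KD input. The lanes of the 4 groups were therefore not treated as biological replicates, and no p-value was computed. The intervals given cover counting error only, since PCR copies without molecular identifiers do not count separate molecules. Whether the knockdown cells were a clone or a pool is not given in the sources used here.

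m6A is the most common internal modification of mRNA. It is deposited in the nucleus by a complex in which METTL3 is the catalytic subunit and METTL14 and WTAP are partners, mainly at adenosines in the DRACH context. In mRNA the mark is known to lie preferentially around the stop codon, in the 3′UTR and in long internal exons, where reader proteins bind it and influence RNA stability, splicing and translation.

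The sequences below are from GRCh37 (hg19), written 5′ to 3′ on the transcript strand. They surround the DRACH motif nearest to the summit, with its flanks in the same exon. They come from some of the best-covered peaks of the 3′UTR, CDS and 5′UTR, overlapping peaks of both lists, and the host gene with the most peaks. Not every best-covered peak is shown. Those of NISCH, EIF3D, DPH1 and H2AZ1 had no DRACH within 50 nt of the summit and are left out. Capitals mark the motif. In the sequences shown, its central A lay between 46 nt upstream and 26 nt downstream of the summit along the transcript, a range that follows from this choice.
NUDT5 3′UTR, chr10:12208736-12208764, minus strand: ctctttttgtgtTGACTtttagggcctcc
SPTLC2 3′UTR, chr14:77975526-77975554, minus strand: ttctagtctccaTAACCcccaaagtactg
ANKRD39 3′UTR, chr2:97513920-97513948, minus strand: ggaactgaggccAGACCacccaggaagag
TYSND1 3′UTR, chr10:71899222-71899250, minus strand: cagagtcagggcTGACAaaggactcagct
H2AC14 CDS, chr6:27782456-27782484, minus strand: gcgccaaggccaAGACCcgctcttctcgg
DHX9 CDS, chr1:182847179-182847207, plus strand: ctcacaacaataTGACCaactatgctacc
ATP5F1E CDS, chr20:57605391-57605419, minus strand: caaatgctgagaAGACTtctggcagcaac
DNPEP CDS, chr2:220251031-220251059, minus strand: gagcacctggttTGACCgtgacctgactc
GSPT1 5′UTR, chr16:12009725-12009753, minus strand: agtgtggagtcgGGACTggagctgctgcc
FAM24B 5′UTR, chr10:124615248-124615276, minus strand: gctgcagttggaAGACCctggaggatgcc
FAM83G 3′UTR, chr17:18873099-18873127, minus strand: gtacatgcttttAAACAattggaggagct
TTLL12 CDS, chr22:43575654-43575682, minus strand: caccgacatgctGGACCtcagctcttgca
PLXNA1 CDS, chr3:126710247-126710275, plus strand: cttctgcgggcaGGACTtcaaccagcccc
PLXNA1 3′UTR, chr3:126753081-126753109, plus strand: gctcaggggccgGGACAgcactgggtgct

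Very few distinct fragments lay behind these peaks. The peak caller kept 1 tag per position, which left 4508 distinct tags of 1252805 in the METTL3-KD m6A library and 52141 of 1337448 in its input, against 7920 of 2242358 and 9291 of 2880835 in the control m6A and input libraries. Distinct input positions were thus 11.6 times the distinct m6A positions in METTL3-KD cells and 1.17 times in control cells, and what this imbalance contributed to the peak calls was not tested. Gene-assigned input reads totalled 3237968 in control and 1833005 in METTL3-KD cells. METTL3 itself had 0 reads in all 4 input lanes, so the knockdown could not be checked from these counts. Of 28 epithelial and mesenchymal genes listed, 8 had control input reads and 13 had METTL3-KD input reads. As examples of lineage genes, KRT8, KRT18 and VIM were read in both inputs, while EPCAM and CDH1 had 0 reads in every lane. A count of 0 does not show absence, since 89.7% of all protein-coding genes had 0 control reads and 60.4% had 0 METTL3-KD reads.

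The CDS held more of the exonic peaks than any other class. It contained 290 peaks (50%, 45.9 to 54.1), followed by the 3′UTR with 159 (27.4%, 23.9 to 31.2), noncoding exons with 105 (18.1%, 15.2 to 21.4) and the 5′UTR with 26 (4.48%, 3.08 to 6.49). The 1497 exonic peaks of control cells were divided in a similar order, with 48.2% in the CDS, 29.5% in the 3′UTR, 15.4% in noncoding exons and 7.01% (5.83 to 8.42) in the 5′UTR. The order of the first 2 classes depended on the transcripts used: when every transcript with a CDS was admitted, including those predicted to undergo nonsense-mediated decay, 236 peaks (40.7%) counted as 3′UTR and 218 (37.6%) as CDS. Exons as a whole took a smaller share of the METTL3-KD list than of the control list (65.1%, 63.2 to 67.1), and introns a larger one (41.3% against 29.3%).

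The peaks were small. Peak lengths ranged from 100 to 233 bp with a median of 100 bp, the length to which the peak caller extended a single tag. The summit pileup, which counts overlapping distinct m6A fragments, was 1 in 403 of the 580 peaks (69.5%, 65.6 to 73.1), 2 in 49, 3 in 52, 4 to 9 in 63 and 10 or more in 13. Among control exonic peaks, a pileup of 1 was found in 715 (47.8%, 45.2 to 50.3) and a pileup of 4 or more in 72 (4.81%), compared with 76 (13.1%) in METTL3-KD cells. Single-fragment peaks were frequent in every class, with 73% of 3′UTR, 68.3% of CDS, 73.1% of 5′UTR and 66.7% of noncoding peaks. A pileup of 4 or more was reached by 14 peaks in 3′UTRs (8.81%), 41 in the CDS (14.1%), 5 in 5′UTRs (19.2%) and 16 in noncoding exons (15.2%).

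**Figure D1:**
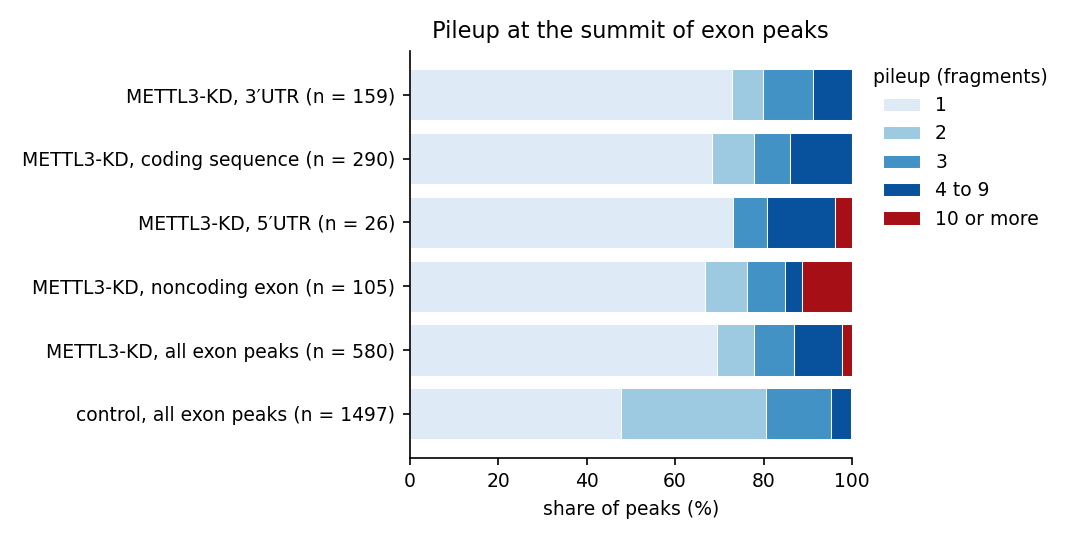
Stacked bars of the share of exonic peaks (%) by summit pileup in distinct m6A fragments, for each exon class and all exonic peaks of METTL3-KD cells and for all exonic peaks of control cells. A pileup of 1 made up 69.5% of the METTL3-KD peaks and 47.8% of the control peaks.

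The highest pileups were in small structured RNAs rather than in mRNAs. Of the 580 peaks, 12 lay in snRNA genes and 8 in genes annotated as miscellaneous RNA; these 20 peaks carried 401 of the summed pileup of 1368 (29.3%), and 12 of them had a pileup of 10 or more. RN7SL2 and RN7SL3 encode 7SL RNA, the scaffold of the signal recognition particle, and their peaks had pileups of 71 and 59. The related copies RN7SL5P and RN7SL4P had pileups of 61 and 40. Because these copies are near-identical, the assignment of fragments to any single copy is uncertain. Input reads in the 2 lanes were 59807 and 61274 in control cells and 26720 and 27355 in METTL3-KD cells for RN7SL2, which gave a log2 ratio of METTL3-KD over control input of 1.03 after TMM scaling and a value below 0 after scaling to total counts. All 4 copies overlapped a control peak with a higher pileup, of 96 for RN7SL2, 86 for RN7SL3, 85 for RN7SL5P and 81 for RN7SL4P. Fold enrichment over input went the other way, with 15.3 in METTL3-KD against 3.33 in control cells for RN7SL2, 32.2 against 4.82 for RN7SL3, 16.5 against 4.01 for RN7SL5P and 14.6 against 5.29 for RN7SL4P. Both measures depend on the depth and scaling of each list, so neither is a comparison of methylation between the conditions.

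U1 snRNA, which recognizes the 5′ splice site, had peaks in METTL3-KD cells at 10 gene copies. In 8 of them the pileup was 18 to 23, all 8 copies are 164 nt long, and they differ from RNU1-1 at no more than 1 position, so they share fragments and do not count as separate sites. Reads for each of these 8 copies ranged from 9947 to 11378 in the control input and from 34168 to 35964 in the METTL3-KD input. RNU1-1, with a pileup of 23, was read 5465 and 5584 times in the control input, against 17874 and 18090 times after METTL3 knockdown. The control list had 0 peaks in U1 copies and 1 in any snRNA. U1 reads were thus also more numerous in the METTL3-KD input, and their part in the peaks was not tested.

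Most other noncoding peaks were isolated. The 105 peaks of the class lay in exons of protein-coding genes outside any protein-coding transcript (34), pseudogenes (31), long noncoding RNAs (18), snRNAs (12), miscellaneous RNAs (8) and other genes (2). SNHG12, a host gene of small nucleolar RNAs, had a peak with a pileup of 1 and 0 input reads in control lanes against 11 and 14 in METTL3-KD lanes. Pseudogene peaks are uncertain, since their reads may come from the parent gene. Across all classes, 49 summits lay in exons of more than 1 gene.

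In the CDS, the best-covered peak was in H2AC14, a replication-dependent histone H2A gene, with a pileup of 8. NISCH, ATP5F1E, EIF3D and DHX9 followed with 7, and DNPEP and NIBAN2 with 6. These genes differed widely in input. DHX9, an RNA helicase, had its peak in exon 20 of 28 and 637 and 621 control against 190 and 187 METTL3-KD input reads. ATP5F1E, a subunit of ATP synthase, had 489 and 501 control against 37 and 44 METTL3-KD reads, a log2 ratio of −1.41. EIF3D, a subunit of translation initiation factor 3, went the other way, with 63 and 56 control against 179 and 178 METTL3-KD reads and a log2 ratio of 3.74. NISCH was at 0 in the control input and at 27 and 22 in that of METTL3-KD cells, whereas DNPEP, an aspartyl aminopeptidase with peaks of pileup 6 and 1, had 0 reads in all 4 input lanes.

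In the 3′UTR, NUDT5, which hydrolyses ADP-ribose, had the highest pileup, 7, at 959 nt after the stop codon in exon 10 of 10. SPTLC2, a subunit of the enzyme that starts sphingolipid synthesis, followed with a pileup of 6 at 3089 nt after the stop codon. ANKRD39, TYSND1 and DPH1 each had a pileup of 5, at 133, 429 and 234 nt after the stop codon. The 5 best-covered 3′UTR peaks thus lay at distances from near the stop codon to deep in the terminal exon. For NUDT5 the control input held 0 reads and the METTL3-KD input 35 and 48, for SPTLC2 0 against 39 and 38, and for TYSND1, a peroxisomal protease, 0 against 27 and 31. ANKRD39 had 0 reads in every lane. DPH1, which acts in diphthamide synthesis on elongation factor 2, fell by 2.54 on the log2 scale, from 488 and 487 control reads to 16 and 20.

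In the 5′UTR, the highest pileup was 13, in WDR74, where the summit also lies in RNU2-2P, a U2 snRNA gene, so the fragments cannot be assigned to the mRNA. GSPT1, a translation termination factor, and H2AZ1, which encodes the histone variant H2A.Z, each had a pileup of 6, FAM24B 5 and GPBP1L1 4. For H2AZ1 the lanes held 0 control reads against 39 and 26 in METTL3-KD cells, and for GSPT1 247 and 265 against 115 and 120. FAM24B had none in either input, and GPBP1L1 had 293 and 267 control against 26 and 19 METTL3-KD reads.

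The exonic peaks were not concentrated at the stop codon. For 452 peaks in 436 genes with a summit on the MANE Select transcript, positions were compared with the share of transcript length taken by each region in the same transcripts. The CDS held 297 peaks (65.7%, 61.2 to 69.9) against 50.7% of the length, the 3′UTR 135 (29.9%, 25.8 to 34.2) against 44% and the 5′UTR 20 (4.42%) against 5.32%. Of 432 peaks in the CDS or 3′UTR, 62 (14.4%, 11.4 to 18) lay within 200 nt of the stop codon, where an even spread would place 13.4%. Last exons held 38.3% of the peaks against 51.2% of the length, and exons of at least 400 nt held 44.2% against 57%. Summits within 100 nt of an exon junction were more frequent than length alone gives, 249 peaks (55.1%, 50.5 to 59.6) against 42.9%. Control peaks departed from length in the same direction in the CDS, with 60.8% against 52.6%, and in the 3′UTR, with 33% against 42.1%. Over all summits on MANE Select transcripts, 16.5% (14.5 to 18.8) of control peaks lay within 200 nt of the stop codon against 13.5% of the length. Within 100 nt of it, 9.27% (7.76 to 11) did so against 7.03%. On the same basis the METTL3-KD peaks gave 13.7% (10.8 to 17.2) against 12.6% within 200 nt and 6.19% (4.32 to 8.81) against 6.44% within 100 nt, so that the intervals of both lists overlapped. In the 5′UTR, control peaks made up 6.18% against 5.32% of the length. Among the 136 METTL3-KD summits with a pileup of 2 or more, 50 (36.8%, 29.1 to 45.1) lay within 400 nt of the stop codon. That window took 28.3% of the length. Within 200 nt, the same summits gave 14.7% (9.73 to 21.6) against 14.9%. This subgroup and the 400 nt window were picked from several after their values were seen.

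**Figure D2:**
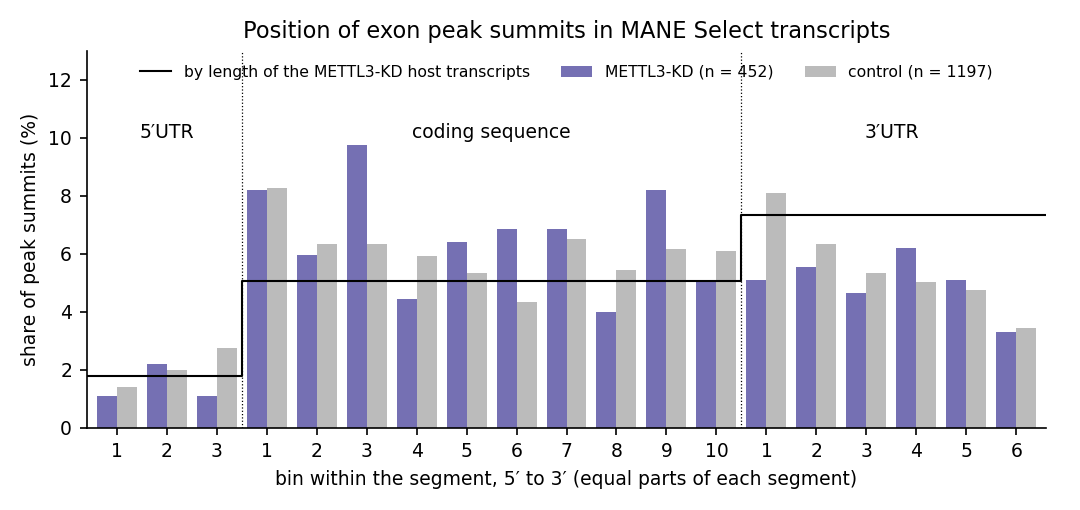
Share of summits (%) in equal bins of the 5′UTR, CDS and 3′UTR of MANE Select transcripts, for METTL3-KD (purple) and control (grey) peaks, with a line for an even spread over the METTL3-KD host transcripts. The first 3′UTR bin held 5.09% of METTL3-KD peaks, under the line at 7.34%, and 8.1% of control peaks.

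Within the 3′UTR, the median distance of the 135 summits from the stop codon was 831 nt, with quartiles of 265.5 and 1900.5 nt and extremes of 10 and 6432 nt. Relative to the length of the region, the median summit lay at 0.474 of the CDS and at 0.49 of the 3′UTR. ANAPC1, a subunit of the anaphase-promoting complex, had its CDS peak of pileup 5 at 26 nt before the stop codon. Near the other extreme, the peak of DNMT3A, a de novo DNA methyltransferase, lay 5734 nt after the stop codon with a pileup of 1.

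DRACH motifs stood near most summits, at about the frequency of any position in the same segment of the host transcript. DRACH is a motif of 5 nt with the modified A in the centre, searched on the transcript strand only. Within 50 nt of the summit, 493 of the 580 peaks (85%, 81.9 to 87.7) had at least 1 DRACH. The same held for 82.9% of all positions of the host transcript's whole 5′UTR, CDS or 3′UTR, or whole noncoding transcript. The shares were 84.3% against 82.6% in the 3′UTR, 86.2% against 85.8% in the CDS, 69.2% against 65.9% in the 5′UTR and 86.7% (78.9 to 91.9) against 79.6% in noncoding exons. For control exonic peaks they were 83.9% against 82.5%. The GGACT form was found near 48 peaks (8.28%, 6.3 to 10.8), against 10.2% of positions. Among the 14 3′UTR peaks with a pileup of 4 or more, 5 had GGACT (35.7%, 16.3 to 61.2) against 11.7% of positions, a subgroup that was chosen after its values were seen. At the same pileup the other classes did not share this, with GGACT at 2 of 41 CDS peaks (4.88% against 11.8%), 1 of 5 in 5′UTRs (20% against 20.6%) and 0 of 16 in noncoding exons (against 23.4%). Over all exonic peaks of this pileup it stood at 8 of 76 (10.5% against 14.8%). Of the 16 noncoding peaks, 12 lay in U1 or 7SL copies, which are near-identical and not separate sites. These copies also enter the noncoding DRACH share, so its interval is too narrow. In the sequences printed above, GGACT is the marked motif of GSPT1 and of the PLXNA1 CDS peak.

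Single-fragment peaks of METTL3-KD cells took 3 values of q. With a −log10 q of 2.94 there were 513 single-fragment peaks in the whole list, with 1.93 there were 171 and with 1.41 there were 86. Exonic peaks made up 237 of the first level (46.2%, 41.9 to 50.5), 110 of the second (64.3%, 56.9 to 71.1) and 56 of the third (65.1%, 54.6 to 74.3). The strongest q-values thus went with fewer summits in exons. At a fixed pileup of 1, the q-value is set by the local METTL3-KD input, and the fold was 1.99967, 1.99827 and 1.99655 at the 3 levels. The shares by level, including the host reads below, therefore follow from how the peaks were called and are no separate result. Host genes with 0 METTL3-KD input reads were 111 of 227 (48.9%, 42.5 to 55.4) in the first level, 10 of 103 (9.71%) in the second and 2 of 54 (3.7%) in the third, with median METTL3-KD reads of 1, 40 and 59.5. MAP2K4, a kinase upstream of JNK, belonged to the first level with 0 reads in all 4 lanes, and UHMK1, a kinase with a U2AF homology motif, to the third with 112 and 105 METTL3-KD reads.

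**Figure D3:**
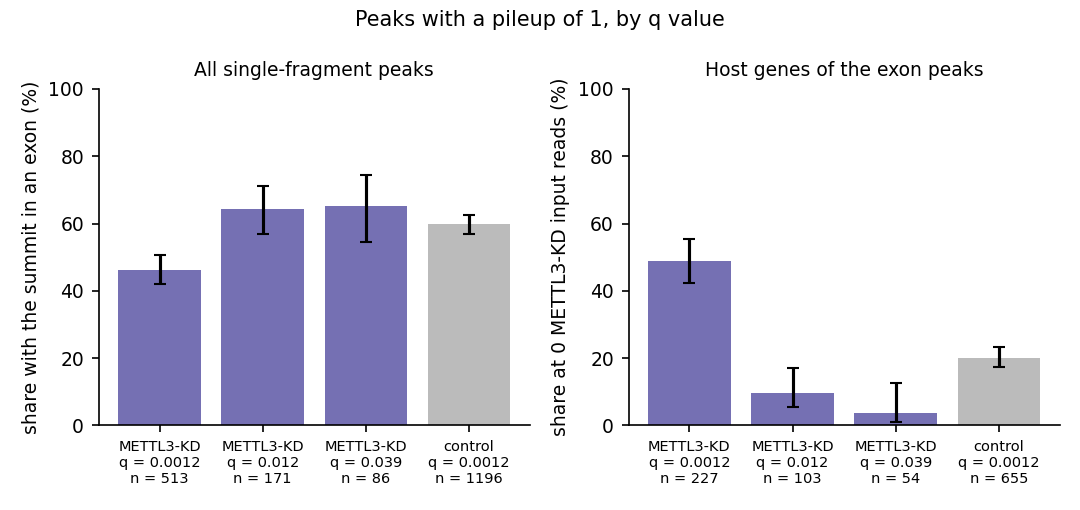
Single-fragment peaks by q-value, for METTL3-KD (purple) and control (grey) cells, with the share of summits in exons (left, %) and the share of their host genes with 0 METTL3-KD input reads (right, %), bars with 95% Wilson intervals. From the lowest to the highest q of METTL3-KD cells, the exonic share went from 46.2% to 65.1% and the share of hosts at 0 reads from 48.9% to 3.7%.

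The input counts of the host genes were sparse, above all in control cells. Of the 558 host genes, 541 were in the count table, and 417 of these (77.1%, 73.4 to 80.4) had 0 control input reads, whereas 154 (28.5%, 24.8 to 32.4) had 0 METTL3-KD input reads. Both inputs were at 0 for 140 genes, only the control input for 277, only the METTL3-KD input for 14, and neither for 110. These are bulk counts, in which fewer cells and less RNA per cell cannot be told apart. Sparse control counts were a property of the table as a whole, since 89.7% of all protein-coding genes had 0 control reads and 60.4% had 0 METTL3-KD reads, against 77.8% and 24.5% of the 482 protein-coding hosts. Hosts of control exonic peaks had 0 control reads in 79.8% and 0 METTL3-KD reads in 14.5%. Reads per distinct position, over whole libraries, were 310 in the control input and 25.7 in the METTL3-KD input. Control hosts with reads seldom had few of them: of 124 genes, 24 had 1 to 100 reads and 34 had over 1200.

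**Figure D4:**
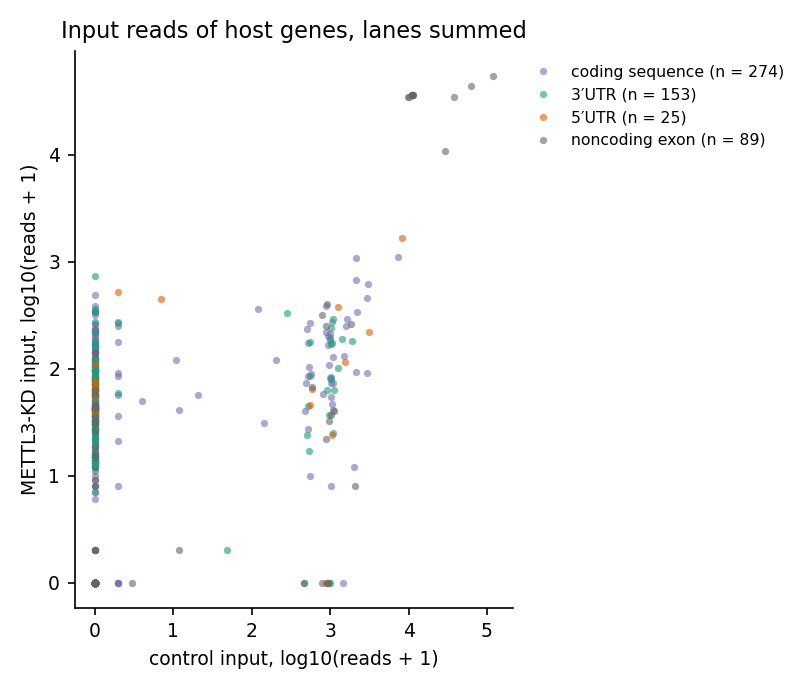
Control against METTL3-KD input reads of the host genes of exonic peaks, each point 1 gene coloured by exon class, on log10(reads + 1) axes where genes at 0 reads lie at 0. The control input was at 0 for 417 of 541 genes and the METTL3-KD input for 154.

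By class, hosts at 0 control reads were 131 of 155 for the 3′UTR (84.5%), 214 of 279 for the CDS (76.7%), 15 of 26 for the 5′UTR (57.7%) and 64 of 92 for noncoding exons (69.6%). The median METTL3-KD read count was 29 for 3′UTR hosts, 49 for CDS hosts, 58 for 5′UTR hosts and 0.5 for noncoding hosts. Among protein-coding hosts, those with higher pileups had more METTL3-KD reads per kb of exon, with medians of 4.54 at a pileup of 1, 5.13 at 2, 8.48 at 3 and 13.7 at 4 to 9. Across the 482 genes, Spearman's rho of pileup with METTL3-KD reads per kb was 0.25, a description across genes that share 1 library.

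A peak was not much more likely in genes with many METTL3-KD reads than in genes with few. Of protein-coding genes with 1 to 30 METTL3-KD input reads, 3.84% hosted an exonic METTL3-KD peak, of those with 31 to 100 reads 4.9%, with 101 to 300 reads 5.38% and with over 300 reads 5.14% (3.51 to 7.48). At 0 reads the share was 1%. The share hosting a control exonic peak climbed further, from 1.44% at 0 reads and 8.55% at 1 to 30 reads. It reached 27.4% (23.6 to 31.5) over 300 reads. The METTL3-KD peaks were called against the METTL3-KD input itself, and the longer control list against the control input. The shares of the lists are therefore not like for like, and what the peak call contributed was not tested.

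**Figure D5:**
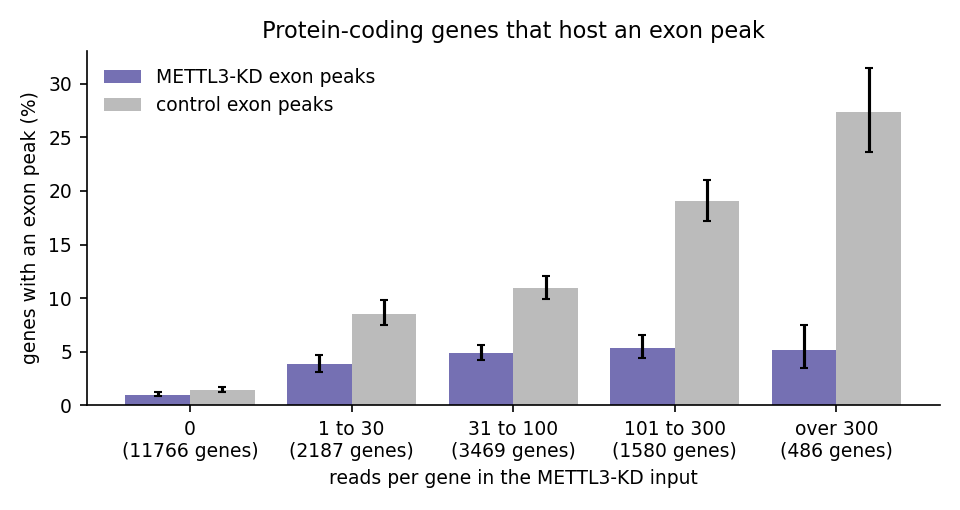
Share of protein-coding genes that host an exonic peak, in percent with 95% Wilson intervals, by METTL3-KD input read count of the gene, for the METTL3-KD and control lists. Over 300 reads, 5.14% of genes hosted a METTL3-KD peak and 27.4% a control peak. METTL3-KD peaks were called against the METTL3-KD input and control peaks against the control input.

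Over all genes with enough reads, the input ratios of host genes were close to those of the whole table. With at least 10 reads over both libraries, 380 host genes had a log2 ratio of METTL3-KD over control, of which 289 (76.1%) exceeded 2 and 29 (7.63%) were under −2, where 79.1% and 7.37% of all 9931 genes tested did so. Of the 289, 262 had 0 control reads, so their fitted ratio depends on the prior count and sets no size. With counts under the floor of 3 reads set to 3, 289 and 28 host genes were past the threshold, and 79.2% and 7.34% of all genes. The median log2 ratio was 5.68 for hosts and 5.60 for all genes, and scaling by total counts moved the median of all genes to 4.62, a shift that turns log2 ratios between 0 and 1.37 below 0, among them those of DHX9, GSPT1 and RN7SL2. Restricted to genes with at least 10 reads in each input, 91 hosts had a median of −0.44, with 14 (15.4%) above 2 and 16 (17.6%) under −2, against 7.71% and 21.9% of 1687 genes, whose median was −0.63. Of the 14, 8 were the U1 copies that share reads and 1 was RN7SL4P. Without snRNA and miscellaneous RNA genes, a choice made after seeing the data, 5 of 79 hosts (6.33%) were above 2 and 16 (20.3%) under −2, against 6.66% and 22.3% of 1652 genes.

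The control input held 1447 reads of SOS2, a guanine nucleotide exchange factor for RAS, and the METTL3-KD input 0. With the floor of 3 reads in place of 0, the scaled read count was 105-fold lower in the METTL3-KD library. DIAPH1, a formin that nucleates actin filaments, went from 2940 to 89 reads (−2.84), and KPNA6, a nuclear import adaptor, from 2125 to 91 (−2.34). Conversely, PLXNA1, TRAP1 and ATM were at 0 in the control input. With the same floor there, their METTL3-KD reads were 347-fold, 292-fold and 272-fold higher under TMM scaling. Scaling to total counts lowered these values to 134-fold, 113-fold and 105-fold, and raised that of SOS2 to 273-fold. These values concern reads in 2 single libraries and set no lower bound on a difference in RNA. Over whole libraries, 1 distinct position held 310 reads in the control input and 25.7 in the METTL3-KD input. The floor of 3 reads thus lay below 1 typical position in either input.

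Several of the 19 gene lists examined held few or no exonic peaks, counts too small to be read as a result about these genes. No gene of the m6A methyltransferase complex (11 genes), the m6A erasers and readers (16), the proteasome (41), DNA replication (42) or the epithelial and mesenchymal markers (28) hosted a peak. Of all protein-coding genes, 487 of 20175 (2.41%) did, and at that share a list of this length can hold 0 hosts without being depleted. Zinc finger genes contributed 10 of 508 (1.97%), near the share of all genes, chromatin regulators 4 of 69 (5.80%), and translation factors 3 of 47 (6.38%). The chromatin group consisted of CHD8 and BAZ1B, which remodel nucleosomes, DNMT3A, and EP300, a histone acetyltransferase. CHD8 had 0 and 1 control reads against 144 and 121 METTL3-KD reads, while BAZ1B had 468 and 558 against 116 and 124. The non-muscle myosin heavy chains MYH9 and MYH10 each had a CDS peak and were read in both inputs, with 1478 and 1604 control and 310 and 305 METTL3-KD reads for MYH9. Among glycolytic genes, PFKP, a phosphofructokinase, had a CDS peak of pileup 4, and HK2, a hexokinase, a 3′UTR peak of pileup 2 with 0 reads in all lanes. RPL3 was the only ribosomal protein gene of 84, with a CDS peak of pileup 5. The translation group held EIF3D, GSPT1 and PABPC1, the cytoplasmic poly(A)-binding protein, with 4 peaks. The histone list held H2AC14 and H2AZ1 of 76 genes, and the pancreatic cancer driver list ATM, a kinase of the DNA damage response, and MAP2K4 of 25. A single gene was hit in each of the lists of splicing factors (SRRM1 of 72), tRNA synthetases (GARS1 of 20), chaperones (TRAP1, the mitochondrial HSP90, of 36), mitotic regulators (ANAPC1 of 30) and small nucleolar RNA hosts (SNHG12 of 24). The list of small structured RNAs, made by gene name, had 16 host genes among 6795 annotated and does not hold 4 of the 20 snRNA and miscellaneous RNA hosts described above, the U1 copies RNVU1-7, RNVU1-9, RNVU1-10 and RNVU1-18.

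Nearly all exonic peaks of METTL3-KD cells lay apart from the control peaks. Only 12 of the 580 (2.07%, 1.19 to 3.58) overlapped a control peak by at least 1 bp, 8 of them in noncoding exons, 2 in the CDS, 1 in the 3′UTR and 1 in the 5′UTR. Of the control exonic peaks, 13 of 1497 (0.868%) overlapped a METTL3-KD peak. The share over all METTL3-KD peaks, introns included, is not given here, so the low overlap is not read as a trait of exonic peaks. Besides the 7SL copies, the noncoding overlaps were in RN7SKP36, CDC20P1 and the genes ENSG00000279133 and ENSG00000274629. In mRNAs, the overlaps were in FAM83G, NOB1, TTLL12 and UHMK1, each with a pileup of 1 in METTL3-KD cells. The FAM83G peak was the same interval in both lists, chr17:18873041-18873140, with a pileup of 1 in each, so that it rested on 1 fragment per library. The UHMK1 peak overlapped a control peak of pileup 3 by 14 bp. With summits within 200 bp counted as shared, 18 peaks (3.1%) had a control counterpart.

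At the level of genes the lists shared more. The METTL3-KD and control exonic peaks had 85 host genes in common, which was 15.2% of the 558 METTL3-KD hosts and 6.41% of the 1327 control hosts, and 93 METTL3-KD peaks (16%) lay in such a gene. Among protein-coding genes, 74 of 487 METTL3-KD hosts (15.2%, 12.3 to 18.7) also hosted a control exonic peak, compared with 1185 of all 20175 (5.87%). The protein-coding hosts also had a longer median exon length than all protein-coding genes (6517.5 against 4476.5 nt). Fewer of them had 0 METTL3-KD input reads (24.5% against 60.4%). The share of genes hosting a control exonic peak rose from 1.44% at 0 such reads to 27.4% over 300. All protein-coding genes are therefore not a matched background, and the part of length and of reads in the sharing was not tested. Among the 85 shared host genes, CD99 was counted under more than 1 gene entry. The nearest control summit lay at a median genomic distance, introns included, of 3904 nt from the METTL3-KD summit, between 0 and 97369 nt. It was over 1000 nt away in 57 of the 85. TYSND1 was among the few with near summits, at 138 nt.

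Most host genes had a single peak. Of the 558, 538 had 1, 19 had 2 and PLXNA1, a receptor for semaphorins, had 4. Its peaks were in exon 3 with a pileup of 3, in exon 27 with a pileup of 1, and in the last exon at 240 and 943 nt after the stop codon with a pileup of 1 each, and the gene had 0 control and 125 and 103 METTL3-KD input reads. NIBAN2 carried CDS peaks with pileups of 6 and 5, and DHX9 and GSPT1 each had both a 5′UTR and a CDS peak.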

How the data were processed

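The 8 samples were m6A and input lanes of MIAPaCa-2 cells with control or METTL3 shRNA, from total RNA fragmented before precipitation and prepared without oligo-dT selection. The authors removed rRNA reads with Bowtie2 and aligned the rest to hg19 with HISAT2. Per the file headers, MACS2 2.1.1.20160309 then called 1 deposited peak list per condition with both lanes pooled, a q cut-off of 0.05 (the methods state 0.01), an extension of 100 bp and 1 tag per position. They give a pileup signal, a fold enrichment ratio and a −log10 q for each peak as deposited. The deposited input table holds read counts per gene and lane, made by the authors with featureCounts. Strand use, multi-mapping and annotation release are not given in the sources used here. Columns left unused numbered 0.

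Lanes were summed per library (1 library per condition). Summits were annotated with GENCODE 44 lifted to GRCh37, using protein-coding transcripts for CDS and UTRs. Log2 ratios used edgeR 4.0.16 TMM factors (1.61 control, 0.621 METTL3-KD), a prior count of 2 and at least 10 reads over both libraries, with a call beyond 2. Intervals are Wilson 95%. Motifs were read from the GRCh37 genome with pysam 0.24.0. Scripts ran in R 4.3.3 and Python 3.11.15 and were tested on simulated data. Named genes were the 5 highest pileups per class, all peaks overlapping a control peak, genes of the lists, the 5 genes with most peaks and the 5 with most input reads per kb in each condition, with further genes named as examples after their values were seen. The members and lists were chosen with earlier results of these data known. Alternatives covered q and fold filters, annotation, overlap rule, motif and stop windows, scaling, read minimum, DESeq2 1.42.0 and single lanes. A result of 1 gene list is not reported here.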

Additional observations from a re-analysis of the deposited data

Results flagged for a closer look

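Mitochondrial peaks were left out of the exonic set. The METTL3-KD list held 3 peaks on the mitochondrial genome, with pileups of 19, 40 and 35, and the control list held 1 with a pileup of 51. They stand here because they are a signal in data that the comparisons above did not use, in a number above that of control cells.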

How the results depend on the processing

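Of 64 values under alternative settings, 50 kept within the spread or 1.5 times of the value given, and 14 moved. A fold enrichment above 2 left 177 exonic peaks, since a single-fragment peak has a fold just under 2. With canonical transcripts only, the CDS share was 59.6% and the noncoding share 9.16%, and with every transcript with a CDS, an alternative added after seeing the data, the 3′UTR share was 40.7% and the CDS share 37.6%. A q-value under 0.01 gave a single-fragment share of 57.2%, and sharing by host gene gave an overlap of 16%. DRACH stood near 61.7% of summits with a 25 nt window and 95.9% with 100 nt, and GGACT near 8.28%. The stop codon share was 6.48% at 100 nt and 28.2% at 400 nt, where an even spread would place 6.84% and 25.6%. With at least 50 reads, 158 host genes exceeded 2, and with total count scaling 51 were under −2. Each move follows from the setting's own construction (its window, filter, transcripts or scaling).

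Lanes with the same number were read as a pairing, but the correlation of their deviations was −0.013 over 1871 genes, so the lanes share only a number. With lanes as replicates, 289 host genes were up and 27 down with the replicate block and without it. Leaving out either lane gave 425 host genes with 0 control reads, 255 to 256 up and 26 to 27 down. Without snRNA and miscellaneous RNA hosts, also added after seeing the data, 280 were up and 29 down. Depth limits all values, since the METTL3-KD m6A library held 4508 distinct tags, and so does the single library per condition.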
